A study of Mus musculus with 6 samples.

Results

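The cytosolic ribosomal protein genes measured here were the rows of the count table whose GENCODE M21 symbol begins with Rpl or Rps followed by a number, by a, or by p0 to p2, and which are annotated as protein coding. The S6 kinase genes (Rps6k) and every symbol containing -ps, the mark of a pseudogene, were left out. This gave 86 genes of 54532, of which 34 carry an Rps name and 52 an Rpl name. The rule used names only and no measured value. Of the 86, 77 encode the ribosomal proteins proper and 9 are paralogues or look-alikes, namely Rpl3l, Rpl7l1, Rpl10l, Rpl22l1, Rpl36al, Rpl39l, Rps27l, Rps27rt and Rps19bp1, the last of which encodes a binding protein of Rps19 and not a part of the ribosome. The ribosomal protein genes Fau and Rack1 have other symbols and are given separately.

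RNA-Seq was run on whole epididymal fat, a visceral depot, of male C57BL/6J mice. The ND group ate a normal diet with 4.5% fat and the HFD group a high-fat diet with 60% fat (D12492), from 4 weeks of age and for 16 weeks, and all samples were labelled as untreated. The study compared the diets to look for cells resembling cancer-associated adipocytes in obese fat. Each diet had 3 libraries with totals between 16996896 and 18859320 counts. The labels do not say whether a library is 1 mouse, so p-values measure only the spread between these samples. In whole tissue, fewer cells of a type and less RNA per cell cannot be told apart.

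The cytosolic ribosome translates all mRNAs made in the nucleus. Its small subunit holds the Rps proteins and reads the mRNA, and its large subunit holds the Rpl proteins and joins the amino acids. Most of the proteins are needed in equal numbers, and their mRNAs are among the most abundant of most cells. Many of these mRNAs begin with a run of pyrimidines, the 5′ TOP tract, through which the kinase mTORC1 and the protein Larp1 set their translation. The mouse genome also carries a large number of processed copies of these mRNAs, most of them pseudogenes.

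The start sites of these genes are shown first, since the TOP tract lies there. RefSeq promoters of build GRCm38.p6, each 250 bases before and 50 bases after the start, were found for 66 of the 86 genes. The letters CTTTC, a short pyrimidine run, lay within 20 bases of the start on the sense strand in 20 of these 66 genes (30.3%) and in 6.44% of the 27025 genes with a RefSeq promoter. The letters CGGAAG, the core bound by ETS factors such as GABP, lay anywhere in the 300 bases on either strand in 44 of the 66 (66.7%) and in 18.8% of the 27025. The windows of 20 bases to each side of the start are printed for the 5 genes with CTTTC and the highest mean level and for Rps19bp1, which has no such run, with CTTTC in capitals. They are Rps27rt (chr9:114982720-114982759, minus strand), Rpl4 (chr9:64173367-64173406, plus), Rpl38 (chr11:114668560-114668599, plus), Rpl13 (chr8:123102330-123102369, plus), Rplp2 (chr7:141447631-141447670, plus) and Rps19bp1 (chr15:80264287-80264326, minus).
Rps27rt: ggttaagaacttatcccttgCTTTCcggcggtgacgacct
Rpl4: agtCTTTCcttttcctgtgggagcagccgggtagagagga
Rpl38: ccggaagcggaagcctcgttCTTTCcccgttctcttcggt
Rpl13: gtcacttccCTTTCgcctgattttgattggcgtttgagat
Rplp2: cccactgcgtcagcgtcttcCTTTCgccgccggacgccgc
Rps19bp1: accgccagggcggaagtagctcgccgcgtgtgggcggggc
Both motifs were chosen after these genes had been looked at, and a match is a description of the letters, not of a bound site or a TOP tract. The windows also hold bases before the start, which are not in the mRNA by that start. The CTTTC of Rpl4 and of Rpl13 lies there.

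Together the 86 genes took 2.68%, 2.55% and 3.09% of all counts in the ND libraries, against 3.09%, 2.82% and 3.60% on HFD. The groups overlapped, since the third ND library held about the share of the first HFD library. The means were 2.77% ± 0.282 (SD, n = 3) on ND and 3.17% ± 0.397 (SD, n = 3) on HFD, a ratio of 1.14. The small subunit genes made up 1.18% ± 0.128 on ND and 1.35% ± 0.175 on HFD, and the large subunit genes 1.59% ± 0.154 and 1.82% ± 0.222 (SD, n = 3 each), so both subunits had a ratio of the same size. Rows with these names and -ps in the symbol held little beside them, with counts equal to 3.78% ± 0.354 of the members' counts on ND and 4.07% ± 0.114 on HFD (SD, n = 3 each). Genes of like sequence under other names, such as Gm10275 for Rpl12, are not in these counts.

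By FPKM, which counts fragments relative to exon length and library depth and so allows genes to be compared, the ribosomal protein genes were among the most abundant mRNAs of this fat. Of the 86, 16 were among the 100 genes with the highest mean FPKM over the 6 libraries, 64 among the highest 500 and 74 among the highest 1000. The level of Rplp1, a protein of the stalk that recruits elongation factors, was the highest, with 1484, 1548 and 1518 FPKM on ND, against 1735, 1764 and 2168 on HFD. All 3 HFD libraries lay above the ND libraries, and the fitted log2 fold change was 0.33 (SE 0.17), with an adjusted p of 0.217 in edgeR. Rpl36, on the large subunit, followed with 797, 839 and 895 FPKM on ND, against 808, 858 and 929 on HFD. Rps15, which reaches the decoding site, had 624, 666 and 672 FPKM on ND, against 649, 691 and 719 on HFD. The groups overlapped in both genes.
Next in level were Rps3a1 of the small subunit, with 606, 627 and 650 FPKM on ND, against 662, 644 and 787 on HFD, and Rpl41, the smallest protein of the ribosome, with 579, 667 and 656 FPKM on ND, against 580, 692 and 725 on HFD. The mean of Rpl36 was 854 FPKM over the 6 libraries and those of Rps15, Rps3a1 and Rpl41 were 670, 663 and 650 FPKM, so that these last 3 did not differ beyond their spread. FPKM divides by all annotated exon bases of a gene, which for Rpl10 came to 2053 while its main mRNA has 799, so levels of genes with long annotated side transcripts are understated.

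No ribosomal protein gene rose or fell on HFD by the test. The edgeR quasi-likelihood test covered 15751 genes, called 9.85% of them higher and 6.04% lower at an adjusted p of 0.05, and called 0 of the 83 tested members in either direction. The lowest adjusted p among the members was 0.0857, that of Rps19bp1. At an unadjusted p under 0.05, edgeR had 1 member higher, Rpl38, and 1 lower, Rps19bp1, where 18.7% and 15.3% of all genes passed. DESeq2 called 0 members higher and 1 lower (Rps19bp1), where it called 13.8% and 11.4% of all genes. The limma-voom fit called 0 members in both directions, where it called 1416 genes of the table higher and 945 lower. These p-values do not show that the levels were equal, since the median SE of a member's log2 fold change was 0.168.

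The fitted changes leaned to one side with a small size. Of the 83 members, 77 (92.8%) had a log2 fold change above 0, where 50.5% of all genes did, and 75 lay between 0 and 0.5. The median log2 fold change was 0.21, which is 1.16-fold, with quartiles of 0.11 and 0.26, and the median over all genes was 0.01. In 25 members every HFD library lay above every ND library, where 21.7% of all genes did so, and in 1 member, Rps19bp1, every HFD library lay below, where 19.1% of all genes did so. Counts on CPM (counts relative to the library total, scaled by the TMM factor) set this number of 25, and it was 6 when CPM was scaled by the library total alone, where 19.7% of all genes did so.

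**Figure D1:**
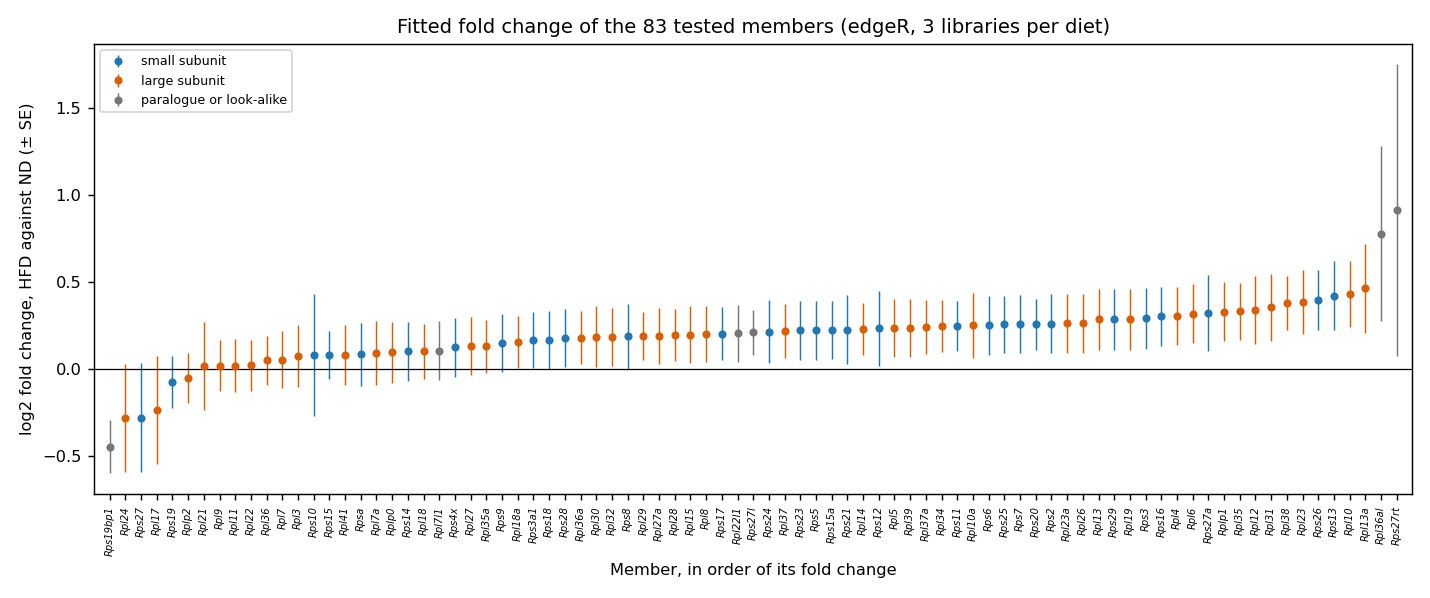
Fitted log2 fold change of HFD against ND for each of the 83 tested members in order of size, with bars of 1 SE (edgeR, 3 libraries per diet). Most points lie between 0 and 0.5, 77 of 83 are above 0 with a median of 0.21, and the widest bar is that of Rps27rt.

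The third HFD library stood highest in most of these genes. Each member was divided by its own ND mean, and the median of this ratio over the 77 proper ribosomal protein genes was 0.948, 1.002 and 1.06 on ND, against 1.08, 1.04 and 1.34 on HFD. The third HFD library was the highest of all 6 in 74 of the 83 members, while over all 15751 genes it was the highest in 5144. It lay above all ND libraries in 75 members, the first HFD library in 47 and the second in 34, and the same was not counted over all genes. Without the third HFD library the median log2 fold change of the members was 0.07, beside -0.02 for all genes, and 62 of 83 were above 0. The first ND library was the lowest of the 6 in 49 members, and in 2284 of all 15751 genes. Within ND the highest library was a median 1.15 times the lowest, within HFD 1.33 times, and over all 6 libraries 1.48 times.

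**Figure D2:**
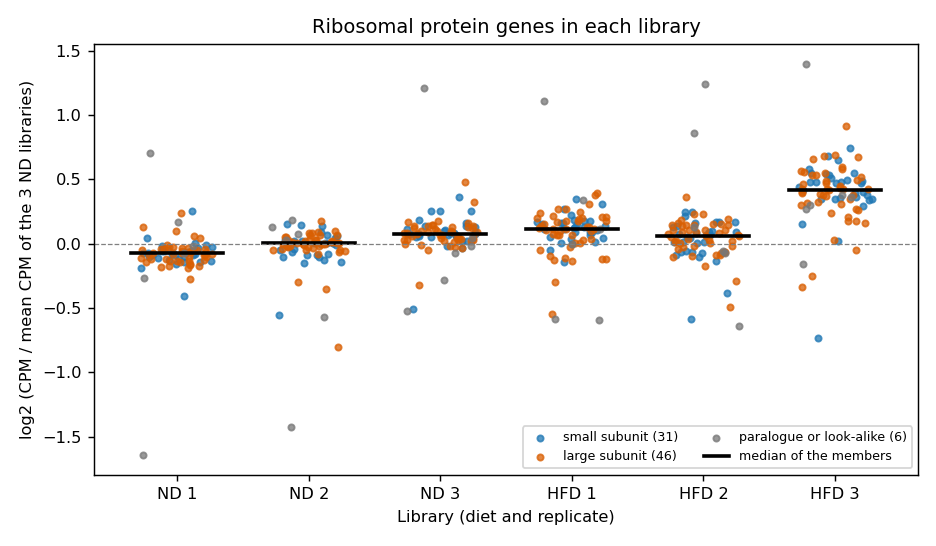
Log2 of the CPM of each tested member over its mean in the 3 ND libraries, in each of the 6 libraries, with the median of the members as a bar. Most members sit together in every library, and 74 of the 83 stand highest in the third HFD library. There the 77 proper ribosomal protein genes have a median ratio of 1.34. The most spread is Rps27rt, with 8.24-fold between its highest and lowest library.

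Summed marker mRNAs of several cell types also stood apart in the third HFD library. The summed CPM of 15 macrophage markers was 1865, 1753 and 1789 on ND, against 4887, 3734 and 8594 on HFD. Of these 15, edgeR called 9 higher and 0 lower, where 9.85% and 6.04% of all genes were called. The summed CPM of 15 adipocyte markers was 62114, 67280 and 53284 on ND, against 30806, 49155 and 18735 on HFD, with 4 of 15 called lower and 1, Lep, called higher. All genes of both lists were detected and tested. The third HFD library thus had the highest macrophage and the lowest adipocyte sum together with the highest ribosomal protein level. In the macrophage sum and in the members' median ratio alike, the first HFD library came next and the second last of the HFD libraries. On ND the orders differed, since the first library had the highest macrophage sum but the lowest median ratio of the members (0.948). Endothelial markers were lowest in the third HFD library (773 CPM, against 1372 to 1719 in the other 5 libraries), and so were mesothelial markers (163 CPM, against 232 to 336). The sum of progenitor and fibroblast markers was highest there (8562 CPM, against 4549 to 7399). Singly, only 6 of these 12 genes were highest in that library, and their median log2 fold change was 0.03. Lymphocyte markers lay between 30.3 and 47.9 CPM in all libraries, and epithelial markers were high in the third ND library alone (297 CPM against 29.3 to 42.6 in the other 5). Whether the makeup of the tissue has a part in the ribosomal protein levels was not tested.

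Among single genes, Rpl38, a surface protein of the large subunit known for its role in the translation of Hox mRNAs, had the lowest p of the genes that were higher. Its CPM was 143, 158 and 182 on ND, against 185, 207 and 238 on HFD. The groups did not overlap, but the lowest HFD library was close to the highest ND library. The log2 fold change was 0.38 (SE 0.15) with an edgeR p of 0.0410 and an adjusted p of 0.131. Rpl10, a late-joining protein of the large subunit near the site of peptide bond formation (chrX:74270812-74273135, GRCm38), had 557, 591 and 653 CPM on ND, against 779, 684 and 965 on HFD. Its log2 fold change was 0.43 (SE 0.19) and its adjusted p 0.154 in edgeR, with no overlap between the diets. Rps13, of the small subunit, had 132, 195 and 199 CPM on ND, against 223, 208 and 275 on HFD, with no overlap and with the first ND library standing low. Its log2 fold change was 0.42 (SE 0.20) and its adjusted p 0.183 in edgeR.

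Rps19bp1 (chr15:80260615-80264315, GRCm38) was the only member whose 3 HFD libraries all lay below ND. Its CPM was 32.9, 34.0 and 32.9 on ND, a narrow range, and 22.2, 21.3 and 29.8 on HFD. The log2 fold change was -0.45 (SE 0.15), with an edgeR p of 0.0206 and an adjusted p of 0.0857. The third HFD library was the nearest to ND here, and without it the log2 fold change was -0.63 with an edgeR adjusted p of 0.0140. DESeq2 gave -0.47 and an adjusted p of 0.0450. Rps19 itself, the gene most often mutated in Diamond-Blackfan anaemia, had 482, 560 and 534 CPM on ND, against 475, 488 and 533 on HFD, groups that overlapped, with a log2 fold change of -0.07 (SE 0.15) and an edgeR adjusted p of 0.767.

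By subunit and functional region, the median log2 fold changes ran from 0.13 to 0.26, and the share of all genes with every HFD library above ND was 21.7% as given above. The 31 small subunit genes had a median log2 fold change of 0.22 with 29 above 0, and in 10 of them all HFD libraries lay above ND. The 46 large subunit genes had a median of 0.20 with 43 above 0, and this was so in 15. The P stalk and its base (Rplp0, Rplp1, Rplp2 and Rpl12), which activates the translation factors, had a median of 0.21, with 3 of 4 above 0 and no overlap in 1. Rplp2 was the exception, at -0.05. For Rpl5 and Rpl11, which carry the 5S rRNA into the ribosome and hold Mdm2 when free, the values were 0.24 and 0.02, with overlap in both. The 7 genes at the rim of the peptide exit tunnel had a median of 0.26 and 5 of them had no overlap, and the 6 genes of the mRNA entry and decoding side had a median of 0.23 with no overlap in 2. The 10 genes of the set mutated in Diamond-Blackfan anaemia had a median of 0.21 with no overlap in 3. No gene of these groups passed the edgeR threshold, and no group was tested against another.

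Of the ribosomal proteins with other symbols, Rack1, a signalling scaffold on the small subunit, had 405, 426 and 447 CPM on ND, against 529, 462 and 721 on HFD. The diets did not overlap, and the log2 fold change was 0.42 (SE 0.20, edgeR adjusted p 0.185). Fau, which encodes the small subunit protein eS30 fused to a ubiquitin-like protein, had 336, 381 and 409 CPM on ND, against 415, 411 and 511 on HFD, with a log2 fold change of 0.25 (SE 0.16, edgeR adjusted p 0.325). Neither gene passed the threshold.

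The genes around the ribosome were read from lists with the members' results known. Of 15 other genes with TOP mRNAs, such as elongation factors, 0 were called, 12 were above 0, the median log2 fold change was 0.24 and the third HFD library was the highest in 15 of 15. Eef1a1, the elongation factor that brings aminoacyl-tRNA to the ribosome, had 3674, 4094 and 3859 CPM on ND, against 4543, 4419 and 5406 on HFD, with no overlap and a log2 fold change of 0.31 (SE 0.22, edgeR adjusted p 0.357). Of 30 ribosome assembly genes, edgeR called 2 higher and 2 lower, where 9.85% and 6.04% of all genes were called, so that these counts are near those of the whole table. Of the 30, 25 were above 0 and the median was 0.24. Heatr1, a part of the processome that makes the small subunit, rose from 19.7, 18.5 and 19.0 CPM to 29.7, 25.1 and 34.0 CPM (log2 fold change 0.64, SE 0.14, edgeR adjusted p 0.0263). Gnl3, the nucleolar GTPase nucleostemin, rose from 29.4, 26.9 and 28.5 CPM to 44.9, 37.8 and 48.5 CPM (0.63, SE 0.13, edgeR adjusted p 0.0204).
In the opposite direction, Rrs1, which helps to load the 5S RNA particle of Rpl5 and Rpl11, fell from 48.7, 44.5 and 51.5 CPM on ND to 31.4, 32.0 and 34.0 CPM on HFD (log2 fold change -0.57, SE 0.11, edgeR adjusted p 0.0173). Dkc1, the pseudouridine synthase of rRNA, fell from 29.3, 29.9 and 28.3 CPM to 21.4, 22.2 and 22.2 CPM (-0.41, SE 0.11, edgeR adjusted p 0.0404). Both genes had no overlap between the diets. With single libraries left out, Heatr1 and Gnl3 stayed past the threshold only without the second or the third HFD library (edgeR adjusted p up to 0.110 and 0.0956 otherwise), Rrs1 only without the second ND, the second HFD or the third HFD library (up to 0.0773 otherwise), and Dkc1 in none of the 6 cases (0.0532 to 0.140). Dkc1 also missed the threshold with library size only (edgeR adjusted p 0.0560) and with no filter on low counts (0.0985). On FPKM values with no filter, Dkc1, Heatr1 and Gnl3 missed it (limma adjusted p 0.070, 0.113 and 0.0693).

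Of 15 genes of RNA polymerase I and rDNA transcription, edgeR called 1 higher and 0 lower, where 9.85% and 6.04% of all genes were called. The 1 called was Myc, a transcription factor that drives ribosome synthesis. It had 11.5, 12.4 and 11.2 CPM on ND, against 27.6, 14.1 and 32.0 on HFD (log2 fold change 1.07, SE 0.29, edgeR adjusted p 0.0472), and the second HFD library stood near ND. The call on Myc held without the second HFD library. It was lost without any of the other 5, where fewer genes of the whole table were called too (edgeR adjusted p of Myc up to 0.161). It was also lost with limma-voom (adjusted p 0.0758), with library size only (0.0505) and in the 3 fits on FPKM values (limma, 0.0726 to 0.160). Of 23 translation initiation factors and 16 genes of mTORC1 and translation control, edgeR called 0, with medians of 0.08 and 0.04. In 7 of the 16 the diets did not overlap, 4 higher and 3 lower, where 21.7% and 19.1% of all genes did so. These counts are thus near those of the whole table. Deptor, Rptor, Tsc1 and Tsc2 were higher and Eif4ebp1, Eif4ebp2 and Rps6kb2 lower on HFD in every library. The lowest edgeR adjusted p of the list was 0.0569. Eif4ebp1, an inhibitor of cap-dependent translation, had 381, 434 and 366 CPM on ND, against 223, 337 and 165 on HFD (log2 fold change -0.70, SE 0.26, edgeR adjusted p 0.110). The kinase gene Mtor had 59.7, 72.9 and 60.7 CPM on ND, against 67.4, 83.1 and 63.1 on HFD (log2 fold change 0.14, edgeR adjusted p 0.528). Rps6kb1, the S6 kinase that phosphorylates Rps6, had a log2 fold change of -0.15 (SE 0.14) and Larp1 one of 0.05 (SE 0.11). The diets overlapped in Mtor, Rps6kb1 and Larp1. These are mRNA levels and hold no measure of kinase activity or of translation.

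Mitochondrial ribosomal protein genes (Mrpl and Mrps), which serve the translation of the few proteins that mitochondria encode, lay on the other side of 0. Of 77 tested, 0 were called higher and 6 lower by edgeR (6.04% of all genes were lower), 7 were above 0 and 37 had every HFD library below every ND library (19.1% of all genes), with a median log2 fold change of -0.26. The 6 called were Mrps16, Mrps15, Mrps31, Mrps26, Mrpl51 and Mrpl9. Mrps16, of the small mitochondrial subunit, had 46.6, 51.6 and 43.5 CPM on ND, against 26.8, 26.7 and 35.9 on HFD (log2 fold change -0.67, SE 0.15, edgeR adjusted p 0.0284). Without the third HFD library the median was -0.29, beside 0.07 for the cytosolic genes, and 3 of 77 were above 0. Without the second ND library it was -0.18, with 15 of 77 above 0. The median ratio to the ND mean was 0.960, 1.12 and 0.919 on ND, against 0.787, 0.853 and 0.838 on HFD, and the second ND library was the highest of the 6 in 66 of 77 genes. Leaving out single libraries moved the number called lower between 0 and 12, with 0 without the first or the second ND library or the first HFD library and 12 without the second HFD library. In these cases, in the same order, 155, 215, 94 and 1572 genes of the whole table were called lower, against 951 with all libraries. Of the mitochondrial genes, 16 were called lower with DESeq2 (11.4% of all genes) and 10 with its size factors (1030 of 15751 genes). On FPKM values 4 were lower with either pseudocount (927 and 895 of 14784 genes) and 0 with no filter (255 of 28568). On counts with no filter 2 were lower (725 of 28568 genes). The difference between the sets was not tested.

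**Figure D3:**
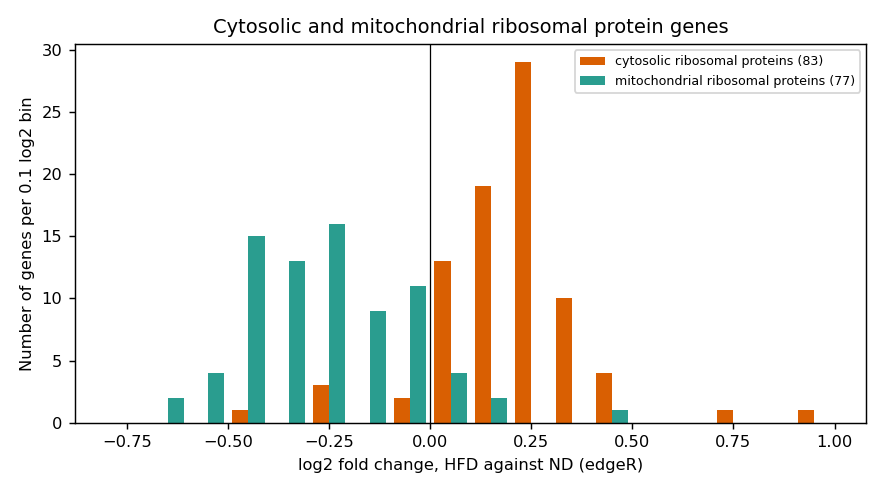
Number of cytosolic (83) and mitochondrial (77) ribosomal protein genes in each bin of 0.1 of the fitted log2 fold change, HFD against ND, with the bars of a bin side by side. The cytosolic genes centre on 0.21 and the mitochondrial genes on -0.26.

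Of the 83 tested members, 6 differed by more than 2-fold between their highest and lowest library, namely Rps27rt, Rpl36al, Rpl17, Rpl13a, Rps13 and Rps27. For 3 of these, Rps27, Rps27rt and Rpl17, the counts were also read together with those of a near copy. Rps27, a zinc finger protein of the small subunit (chr3:90212522-90213651, GRCm38, minus strand), has a retrocopy, Rps27rt (chr9:114982366-114982739, minus strand), whose coding sequence differs from it at 0 of 252 bases. The paralogue Rps27l (chr9:66946086-66949516, plus strand) differs at 60 of 252 bases, an identity of 76.2%, and its longest identical stretch has 11 bases. The coding sequences are printed because they show which of these genes short reads can tell apart. The sequence of Rps27 stands also for Rps27rt, capitals in Rps27l mark the bases that differ from Rps27, and both come from GENCODE M21.
Rps27: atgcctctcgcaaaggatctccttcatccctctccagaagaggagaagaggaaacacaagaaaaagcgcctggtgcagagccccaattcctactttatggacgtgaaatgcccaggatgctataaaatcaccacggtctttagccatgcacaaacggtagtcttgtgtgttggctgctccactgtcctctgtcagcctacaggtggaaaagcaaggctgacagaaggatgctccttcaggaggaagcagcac
Rps27l: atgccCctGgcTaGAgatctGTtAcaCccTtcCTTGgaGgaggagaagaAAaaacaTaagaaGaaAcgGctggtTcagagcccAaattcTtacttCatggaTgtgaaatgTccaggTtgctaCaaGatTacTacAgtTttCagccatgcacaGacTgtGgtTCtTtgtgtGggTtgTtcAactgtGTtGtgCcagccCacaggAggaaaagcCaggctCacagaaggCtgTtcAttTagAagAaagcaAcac
Of all windows of 75 bases in the Rps27 mRNA, 98.5% also occur in another annotated gene. In the Rps27l mRNA 51 of 425 windows do.

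Rps27 had 4437, 3827 and 2828 counts on ND, against 4435, 2223 and 2102 on HFD, and Rps27rt had 563, 610 and 4381 on ND, against 1153, 3716 and 4346 on HFD. Rps27 was low in the third ND library and in all HFD libraries but the first, which were the libraries in which Rps27rt was high. The retrocopy thus held 11.3%, 13.7% and 60.8% of the summed counts on ND and 20.6%, 62.6% and 67.4% on HFD. The highest library was 8.24 times the lowest for Rps27rt and 2.002 times for Rps27, but 1.44 times for their sum. The summed CPM was 269, 257 and 360 on ND, against 305, 357 and 371 on HFD, with means of 295 ± 56.1 and 344 ± 34.8 (SD, n = 3 each) and groups that overlapped. Alone, Rps27rt had the largest log2 fold change of all members, 0.91 (SE 0.84, edgeR adjusted p 0.480), and Rps27 had one of -0.28 (SE 0.31, edgeR adjusted p 0.571). Counted as 1 gene the pair had 0.22 (edgeR adjusted p 0.427), next to the members' median of 0.21. Rps27l, which can be told apart by its sequence, had 100, 116 and 100 CPM on ND, against 114, 115 and 137 on HFD, with a log2 fold change of 0.21 (SE 0.13, edgeR adjusted p 0.289).

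Rpl17, a protein at the exit tunnel, was likewise low in the 3 libraries in which its pseudogene Rpl17-ps10 was highest. This pair was picked because its counts were seen to move against each other, so that pattern is no separate result. Their sum thus rests on a row picked from these same counts. By shared windows of 75 bases the closest gene to Rpl17 was Rpl17-ps8 (56.5%), among 25 genes that share any. Rpl17 had 2452, 1109 and 2805 counts on ND, against 1410, 2007 and 1542 on HFD, and Rpl17-ps10 had 2012, 3421 and 2711 on ND, against 4355, 2785 and 5372 on HFD. The pseudogene row held 45.1%, 75.5% and 49.1% of both on ND and 75.5%, 58.1% and 77.7% on HFD. The summed CPM of 241, 262 and 275 on ND, against 314, 288 and 397 on HFD, did not overlap between the diets. The log2 fold change of Rpl17 was -0.23 (SE 0.31, edgeR adjusted p 0.633) as counted and 0.37 (edgeR adjusted p 0.190) with the counts of all its pseudogene rows added. For Rps10, another small subunit gene, the row Rps10-ps2 held 96.2% to 98.0% of the summed counts in every library, with 60, 37 and 81 counts on ND, against 63, 40 and 72 on HFD left in Rps10 itself.

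**Figure D4:**
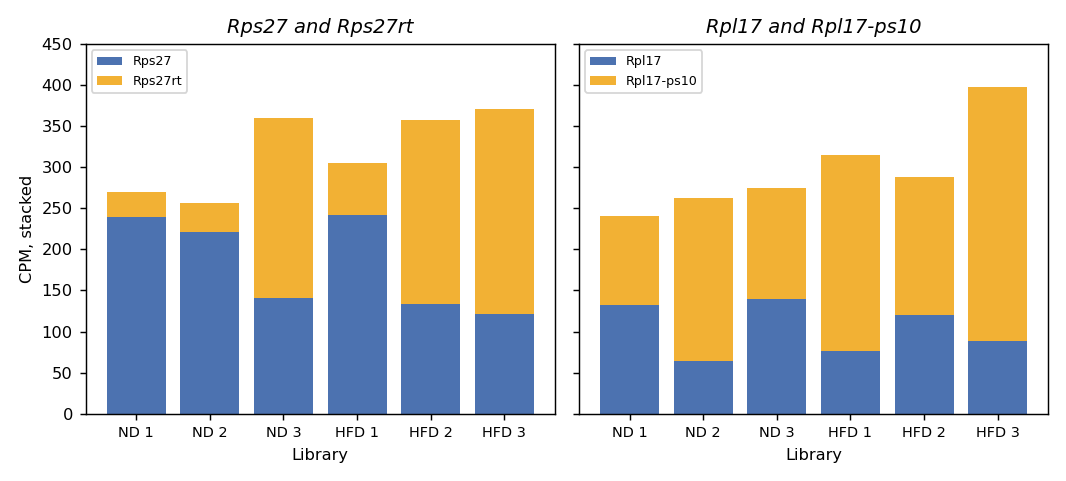
CPM of Rps27 with its retrocopy Rps27rt and of Rpl17 with its pseudogene Rpl17-ps10, stacked, in each of the 6 libraries. The share of the copy differs from library to library, from 11.3% to 67.4% for Rps27rt and from 45.1% to 77.7% for Rpl17-ps10, and the whole stack spans 257 to 371 CPM for the first pair and 241 to 397 CPM for the second.

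Sharing of sequence was common among these genes. In 81 of the 86 members at least 1 window of 75 bases also occurred in another annotated gene, and the median member shared 49.1% of its windows. Next to Rps27 the shares were highest in Rpl5 (92.5%), Rpl10 (91.9%, with Rpl10-ps3 as the closest), Rpl9 (91.3%) and Rps27rt (90.3%). The fold change of Rpl10 given above is uncertain to that extent. Where the exons of a member lie opposite another gene, as for Rpl5 and Fam69a (953 of 3920 bases) or Rpl23a and Tlcd1 (506 of 847), reads of the 2 genes cannot be told apart without strand. The strand setting is not given in the sources used here. Adding the counts of 298 pseudogene rows to the members they are named for left the median log2 fold change at 0.22 and the number called at 0. This covered only rows with -ps in the symbol, and not genes such as Gm10275, the closest to Rpl12.

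Of the 83 tested members, 4 had a mean under 10 FPKM, the next above being Rpl22l1 with 22.6, and in each of the 4 the exons overlap another annotated gene on the same strand, other than small RNA genes, over more than 100 bases. Rpl13a, a large subunit protein that can also leave the ribosome to silence inflammatory mRNAs, shares 621 of its 2114 exonic bases with Gm45713 and had a mean of 6.74 FPKM. Rpl24, of the large subunit, shares 484 of 1030 with Gm28037 and had 1.59 FPKM. Rps10 shares 475 of 2311 with RPS10-NUDT3 and had 1.41 FPKM, and the paralogue Rpl36al shares 332 of 1353 with Gm49383 and had 0.438 FPKM. The 4 other genes had 0 counts in the 6 libraries, and how reads in shared exons were counted was not tested. These low counts limit the fold changes. Rpl13a had 10.6, 11.9 and 13.1 CPM on ND, against 15.5, 11.2 and 22.4 on HFD (log2 fold change 0.47, SE 0.26, edgeR adjusted p 0.247). Rpl36al, with 13, 5 and 6 counts on ND, against 17, 13 and 9 on HFD, had a log2 fold change of 0.78 (SE 0.50, edgeR adjusted p 0.313), and Rpl24, with 36, 25 and 39 counts on ND, against 30, 21 and 26 on HFD, had one of -0.28 (SE 0.31, edgeR adjusted p 0.566). The diets overlapped in all 3.

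**Figure D5:**
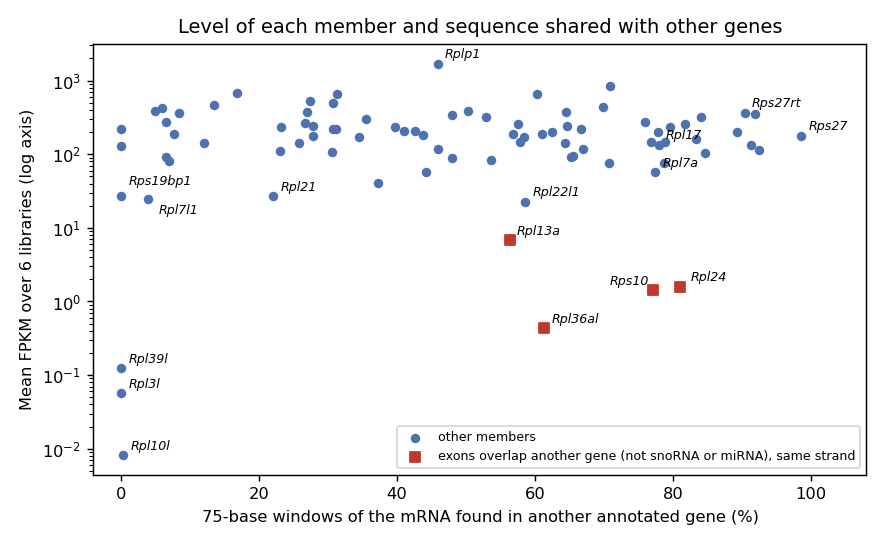
Mean FPKM of each of the 86 members over the 6 libraries (log axis) against the percent of 75-base windows of its mRNA found in another annotated gene. Squares mark Rpl13a, Rpl24, Rps10 and Rpl36al, whose exons overlap another gene on the same strand, and which lie between 0.438 and 6.74 FPKM.

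The paralogues differed in level from the genes they resemble. Rpl22l1, which can take the place of Rpl22 in the large subunit, had 21.1 ± 3.28 FPKM on ND and 24.1 ± 3.47 on HFD, beside 80.7 ± 3.22 and 81.2 ± 11.2 for Rpl22 (SD, n = 3 each). Rpl7l1 had 23.8 ± 3.93 FPKM on ND and 25.3 ± 4.19 on HFD, beside 203 ± 4.77 and 209 ± 27.9 for Rpl7 (SD, n = 3 each). Rps27l, at 131 ± 11.7 FPKM on ND and 151 ± 15.7 on HFD (SD, n = 3 each), was the paralogue closest in level to its parent gene, Rps27, whose own level depends on the split with Rps27rt. Of these pairs, Rpl36a had 98.8 ± 5.77 FPKM on ND and 111 ± 18.1 on HFD (SD, n = 3 each), far above Rpl36al. None of the Rpl22 and Rpl7 genes reached the edgeR threshold, with log2 fold changes of 0.02 for Rpl22, 0.21 for Rpl22l1, 0.06 for Rpl7 and 0.11 for Rpl7l1.

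The 3 members that were too low to be tested are paralogues known from muscle or testis. Rpl3l, the muscle form of Rpl3, had 2, 0 and 2 counts on ND, against 2, 4 and 0 on HFD, beside 160 ± 0.324 FPKM on ND and 167 ± 30.8 on HFD for Rpl3 (SD, n = 3 each). Rpl39l, the testis form of Rpl39, had 2, 0 and 2 counts on ND, against 2, 2 and 3 on HFD, beside 174 ± 13.8 FPKM and 203 ± 34.0 for Rpl39 (SD, n = 3 each). Rpl10l, the testis form of Rpl10, had 1 count in the third ND library and 0 in the other 5, beside 297 ± 21.5 FPKM on ND and 397 ± 69.0 on HFD for Rpl10 (SD, n = 3 each). At or near 3 counts per library, no difference between the diets was detectable at this depth.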

How the data were processed

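RNA from epididymal fat was measured in 3 libraries per diet, grouped by the sample titles. The authors deposited raw counts per gene, not normalized, and FPKM values of the same libraries. The submitters' processing notes name CASAVA 1.8, fastp, HISAT2 2.0.5, featureCounts 1.5.0-p3 and DESeq2 1.20.0 with a human build, while the paper's methods name TopHat, Cufflinks and GRCm38. The row identifiers are those of mouse genes, and 54495 of 54532 were found in GENCODE M21, which gave symbols, biotypes and coordinates. The strand setting and the handling of reads with several matches are not given in the sources used here.

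All genes were tested together by the quasi-likelihood method of edgeR (version 4.0.16 in R 4.3.3), with TMM normalization, filterByExpr, robust=TRUE, no covariate, Benjamini-Hochberg adjustment and an adjusted p of 0.05. Tried beside it were limma-voom (version 3.58.1 of limma), DESeq2 1.42.0, its size factors in edgeR, library size only, TMM without the members, no filter, at least 10 counts in 3 libraries, robust=FALSE, a replicate block, pseudogene counts added, limma on log2(FPKM + 1) for genes with at least 0.5 FPKM, the same with 0.1 or no filter, and each library left out. Summing Rps27 and Rps27rt was added after seeing the data. The steps were tested on simulated data.

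The members and lists were chosen with earlier results of these data known. Named were the 5 largest and 5 smallest log2 fold changes, the 5 highest mean FPKM, both genes of each paralogue pair, untested members, and, of other lists, genes past the threshold and a few genes fixed by name, of which 1 is not reported here. Rpl38 and further genes outside this rule were named after their values were seen. A gene was counted as not overlapping when all 3 CPM of a diet lay beyond all 3 of the other. Sequences shared with other genes were found by exact 75-base windows of 1 mRNA per gene against all GENCODE M21 transcripts. Start sites on chromosome 18 were not printed. With 3 libraries against 3, exact permutation tests of single genes cannot pass the threshold and were not run.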

Additional observations from a re-analysis of the deposited data

How the results depend on the processing

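No member was called higher in any of the 20 alternatives. Rps19bp1 was the 1 member called lower by DESeq2 and without the third HFD library, and 0 members were called lower in the other 18. The median log2 fold change of the members stayed above 0 throughout, between 0.07 (without the third HFD library) and 0.29 (without the second HFD library), and above that of all genes each time. The count of members with all HFD libraries above ND was 25, but 6 with library size only (19.7% of all genes), and it ran from 24 to 45 when single libraries were left out (41 without the third ND library, 45 without the second HFD library, where 25.9% and 30% of all genes did so). The count with all HFD libraries below ND was 1, and ran from 1 to 6 (3 without the second ND library, 2 without the first HFD library and 6 without the third, where 24%, 23.1% and 23.7% of all genes did so). The cause was not tested, except that fewer libraries make separation easier. Same-numbered libraries did not deviate together (correlations of -0.0674, -0.0387 and -0.00211). This cannot exclude that the numbers mark a pairing, on which the labels are silent. With the replicate block, 0 members were called higher and 0 lower, and no call on the members changed, while 1 mitochondrial ribosomal protein gene was called lower and Dkc1 and Myc were not called (edgeR adjusted p 0.0848 and 0.0906). Of the 83 members, 77 were above 0, but 75 with DESeq2 or its size factors and 62 without the third HFD library. Among the members followed singly under each alternative, the log2 fold changes that changed sign, none of them called, were those of Rpl11 with DESeq2 and with its size factors (-0.0014 in both), Rps27 summed with Rps27rt (0.22) and Rpl17 with pseudogene counts added (0.37). With single libraries left out they ran from -0.075 to 0.13 for Rpl7, -0.10 to 0.19 for Rpl3, -0.078 to 0.051 for Rpl11, -0.020 to 0.069 for Rpl36, -0.11 to 0.071 for Rpl22, -0.055 to 0.20 for Rpl7l1 and -0.13 to 0.27 for Rps10. Depth limits Rpl3l, Rpl10l, Rpl39l, Rpl36al, Rpl24 and Rps10.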
